A study of Mus musculus with 4 samples.

Results

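The genes described here are 10 transcription factor genes of the immediate early class: the Fos family (Fos, Fosb, Fosl1, Fosl2), the Jun family (Jun, Junb, Jund), Egr1, Atf3 and Myc. They were found as the probe sets that the array annotation pairs with 1 of these symbols and no other, which gave 14 of the 45101 probe sets on the array, for 10 of the 18193 genes that it names singly. Of the 10 genes, 6 had 1 probe set and 4 had 2. Total RNA came from 4T1, a mouse mammary carcinoma cell line, divided into cells that were positive or negative for CD44v8-10, a splice form of the surface receptor CD44 that carries variant exons. Each group had 2 samples, hybridised to 1 one-colour Affymetrix array each. No treatment is named for any of the 4 samples, which were kept in RPMI 1640 with 10% serum under normoxia and picked by hand under a microscope. The labels do not say how CD44v8-10 was scored, nor whether the 2 samples of a group were separate cultures, so every p-value here rests on the spread within these 4 samples and that spread may be technical.

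Immediate early genes are switched on within minutes of a growth factor, serum or stress signal, without new protein synthesis, by transcription factors that kinases of the MAP kinase cascades have modified. Their products include the Fos and Jun proteins, which pair through leucine zippers to form AP-1, a factor that binds short DNA sites in genes of proliferation, invasion and matrix breakdown. Fos proteins must pair with a Jun protein to bind DNA, whereas Jun proteins can also pair with each other. In epithelial tumours AP-1, Egr1 and Myc are studied as carriers of growth signals from receptors such as the EGF receptor. The mRNAs of most of these genes decay quickly, so their level can reflect the recent state of the cells and how they were handled.

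The promoter of Fos is shown because Fos had the largest difference between the groups among the 10 genes, and a short stretch of the Fosb promoter because Fosb had the next largest. The sequences are from RefSeq, build GRCm38.p6. Capitals in the Fos sequence mark each match to TGACG, the core of the cAMP response element that CREB and ATF proteins bind, and to TATAAA, which the TATA-binding protein recognises, and in the Fosb sequence the match to TGACG. The Fos sequence is the 250 bases before the annotated start, chr12:85473640-85473889 on the plus strand, and the Fosb sequence is 30 bases around its match, chr7:19310088-19310117 on the minus strand.
Fos: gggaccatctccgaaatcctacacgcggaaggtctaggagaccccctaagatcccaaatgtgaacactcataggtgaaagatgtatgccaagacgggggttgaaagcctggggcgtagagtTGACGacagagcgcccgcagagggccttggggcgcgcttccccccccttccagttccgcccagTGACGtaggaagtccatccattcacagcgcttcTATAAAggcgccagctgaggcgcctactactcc
Fosb: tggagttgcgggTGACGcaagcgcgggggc
In Fos the match to TGACG nearest to the start lies 62 to 66 bases before it, and in Fosb the match lies 56 to 60 bases before the start that the promoter table uses. RefSeq's Fosb gene record begins further upstream than that start, so the Fosb stretch lies inside the annotated gene. The search covered 7 of the 10 genes (Fos, Fosb, Fosl2, Jun, Junb, Jund and Atf3), with 1 window each from the promoter table. TGACG was found on either strand in the 250 bases before the table's start in 4 of these 7, Fos, Fosb, Junb and Atf3, against 17.8% of all 32851 windows of that length in the table. TATAAA was in 1 of the 7, Fos, against 12.4% of all windows. TGANTCA, the AP-1 site, was in 0 of the 7 against 6.75% of all windows, and the CArG box, which serum response factor binds, was in 0 against 1.47%, both on either strand. These are matches of letters in 1 window of 250 bases per gene. Sites outside the window, and any in Egr1, Fosl1 and Myc, were not searched for. A count of 0 therefore does not show that these genes lack the site. The arrays measure mRNA and not the use of these sites.

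The deposited arrays were not equally bright, with trimmed mean intensities of 196 to 345, and they were quantile normalized. Probe sets below a normalized signal of 19.4 on average (the 40th percentile) were left out. All 14 probe sets of the 10 genes passed this filter, as did 11956 genes in all, each represented by its brightest probe set. The luminal keratins of the 4T1 line, Krt8 and Krt18, were bright on all 4 arrays, at 7719 to 12998. The lymphocyte and erythroid markers measured were all below the filter level on average.

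Of the 10 genes 0 had an adjusted p under 0.05 in the two-sided limma comparison, with Benjamini-Hochberg adjustment across the 11956 genes tested, against 0.0753% of all genes tested, which were 9 genes. At an unadjusted p under 0.05 there were 2 of the 10, Fos and Fosb, both higher in CD44v8-10-positive cells, against 4.45% of all genes in either direction and 2.68% in that direction. The positive and negative arrays did not overlap in 4 of the 10 genes (Fos, Fosb and Atf3 higher, Fosl1 lower), against 32.3% of all genes. The median log2 fold change of the 10 was 0.03, and that of all genes tested was also 0.03. It ran from -0.14 without negative replicate 1 to 0.33 without negative replicate 2. Of the 10 genes 6 lay above 0, against 54.3% of all genes. Fold changes are differences, positive minus negative, on the scale log2(normalized signal + 16). With 2 arrays against 2, an exact permutation test of a single gene cannot give a two-sided p below 0.333.

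**Figure D1:**
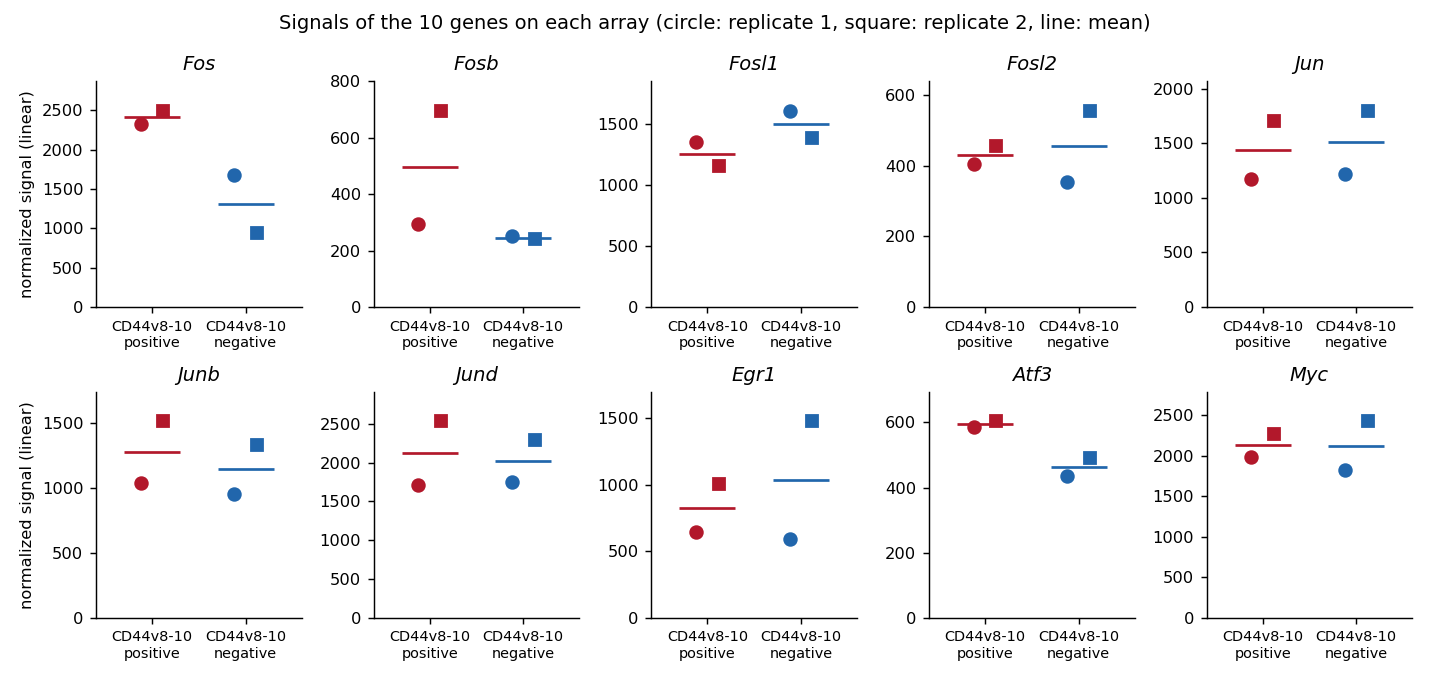
Normalized signal (linear axis from 0) of the brightest probe set of each gene on the 4 arrays, CD44v8-10-positive in red and negative in blue, with circles for replicate 1, squares for replicate 2 and a line at each group's mean of 2 arrays. Both positive arrays of Fos, at 2334 and 2499.7, lie above both negative arrays, and in Fosl2, Jun, Junb, Jund, Egr1 and Myc the groups overlap.

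Fos encodes c-Fos, the founding member of the family and the classic marker of recent stimulation of a cell. Its normalized signal was 2334 and 2499.7 on the positive arrays and 1674.5 and 936 on the negative arrays. The positive arrays were close to each other and both above the negative arrays, which differed from each other by 0.83 on the log2 scale. The means were 2417 ± 118 in positive and 1305 ± 522 in negative cells (SD, n = 2 each). The log2 fold change was 0.94 ± 0.24 (SE), or 1.92-fold, with a 95% interval of 0.41 to 1.47. Its unadjusted p was 0.00216 and its adjusted p 0.532 by limma. In absolute size this change was larger than that of 98.5% of the genes tested. The order did not depend on the scaling: the deposited intensities were 2259 and 2179.5 on the positive and 1333 and 1307 on the negative arrays. The size depended on which negative array was used: the log2 fold change was 1.34 without negative replicate 1 and 0.54 without negative replicate 2. Each of these fits has 1 negative array and so leaves out the spread between the negative samples. In bulk RNA like this, a change in the share of cells that express a gene and a change in the RNA per cell cannot be told apart.

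Fosb encodes FosB, a close relative of c-Fos that is induced by the same stimuli. Its signal was 294 and 697 on the positive arrays and 250.3 and 241 on the negative arrays. Positive replicate 2 stood far above the other 3 arrays, which lay close together. The means were 495 ± 285 and 246 ± 6.28 (SD, n = 2 each), and the log2 fold change was 0.84 ± 0.32 (SE; 95% interval 0.14 to 1.55; limma adjusted p 0.985). It was 0.24 without positive replicate 2 and 1.43 without positive replicate 1. In the intensities as deposited the groups of Fosb overlapped, at 268.5 and 615 against 189 and 352.5, with a log2 fold change of 0.62.

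Fosl1 encodes Fra-1, an AP-1 subunit without the strong activation domain of c-Fos that is linked to invasive growth in breast cancer lines. Its brighter probe set gave 1353 and 1155 on the positive arrays and 1610.4 and 1386 on the negative arrays. Both positive arrays lay below both negative arrays, by a gap smaller than that within either group. The log2 fold change was -0.25 ± 0.19 (SE; 95% interval -0.67 to 0.16; limma adjusted p 0.985). The second probe set gave signals of 475 and 386 against 609.5 and 492 and a log2 fold change of -0.34, and its groups also did not overlap. In the intensities as deposited, where negative replicate 2 was the brightest array, and after scaling to one trimmed mean, the groups of the brighter probe set overlapped, with log2 fold changes of -0.45 and -0.26.

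Fos and Fosl1 thus had fold changes of opposite sign. The difference between their log2 signals within an array, which does not change when an array is made brighter as a whole, was 0.78 and 1.10 on the positive arrays and 0.06 and -0.56 on the negative arrays. Only its change between arrays has a meaning, since different probe sets bind with different strength. It was higher by 1.19 in positive cells. The 3 other scalings also gave 1.19, but they treat all probe sets of an array alike, so this value could hardly change. The pair was chosen after its values were seen, and no test was made of it.

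Fosl2 encodes Fra-2, the other Fos relative without a strong activation domain. Its 2 probe sets went apart. The brighter gave 405 and 457 on the positive arrays and 355 and 557 on the negative arrays, so that the positive values lay between the negative ones, with a log2 fold change of -0.05 (95% interval -0.58 to 0.49). The dimmer gave 103 and 199 against 71.8 and 88.6, with both positive arrays higher and a log2 fold change of 0.74 (p 0.0427 before adjustment and 0.959 after it, limma over 27022 probe sets). Under median centring of the arrays the dimmer probe set had 0.58 (unadjusted limma p 0.0907). With no scaling it had 0.49, and its groups overlapped. With the mean of both probe sets the log2 fold change of Fosl2 was 0.35. Which transcripts of Fosl2 each probe set binds was not analysed here.

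**Figure D2:**
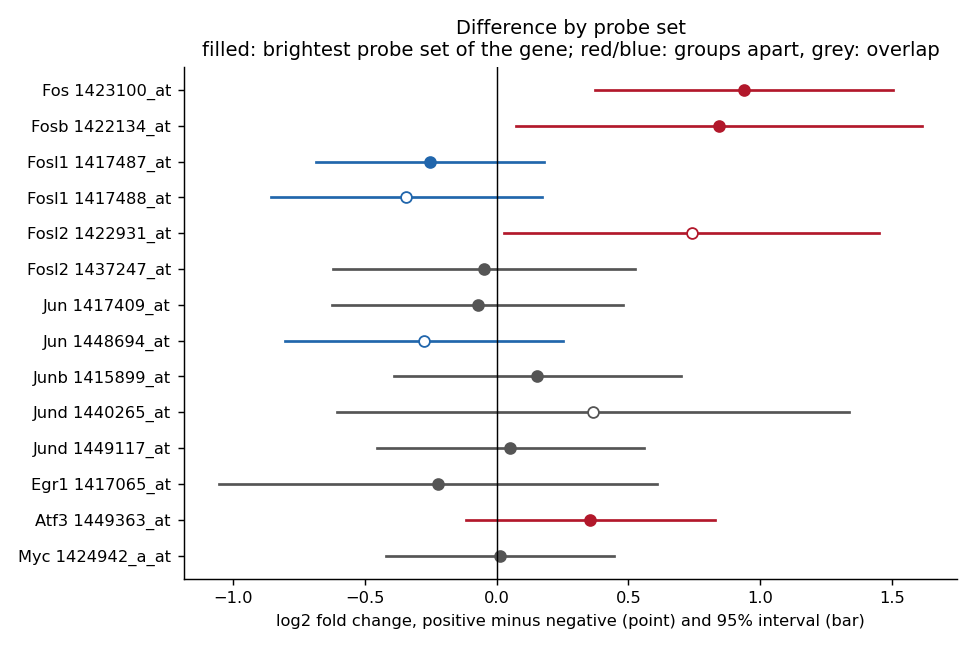
Log2 fold change (positive minus negative, points) with its 95% interval (bars) for the 14 probe sets, from the fit over 27022 probe sets; filled points are the brightest probe set of a gene, and red, blue and grey mark groups that lay apart as higher, apart as lower, or overlapped. The intervals of Fos, Fosb and the dimmer Fosl2 probe set lie above 0, and those of the other 11 include 0.

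Tested on their own, 0 of the 14 probe sets passed limma's adjusted p of 0.05, against 0.0333% of all probe sets, and 3 had an unadjusted p under 0.05, against 4.61%. The groups did not overlap in 7 of the 14, against 33.2% of all probe sets. The adjusted p of the probe sets ran from 0.959 to 0.997 in this fit, where Fos had an unadjusted p of 0.00408.

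The Jun genes, whose products are the obligate partners of the Fos proteins, showed no separation in their brightest probe sets. Jun, which encodes c-Jun, had signals of 1169 and 1701 on the positive and 1221 and 1799.7 on the negative arrays. Each group held 1 lower and 1 higher array, and the log2 fold change was -0.07 ± 0.24 (SE; 95% interval -0.59 to 0.44). Its dimmer probe set gave 327 and 338 against 349 and 471, with groups apart and a log2 fold change of -0.28. The groups of this probe set overlapped under median centring of the arrays (-0.41) and with no scaling (-0.49). Junb, whose product often restrains c-Jun, had 1037 and 1510.1 against 950.3 and 1328. Its log2 fold change was 0.15 (95% interval -0.36 to 0.67), or -0.03 where the arrays were not scaled. Jund, the most steadily expressed of the family, had 1704 and 2532 against 1749 and 2295. Its log2 fold change was 0.05 (95% interval -0.42 to 0.53), and it was -0.04 with arrays centred on their medians. A second Jund probe set lay near the filter level, at 21.7 and 28.35 against 7.28 and 27.4. The intervals of the brightest probe sets of Jun, Junb and Jund together ran from -0.59 to 0.67, which leaves differences of that size possible.

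Egr1, a zinc finger factor induced through the ERK pathway and serum response factor, varied most between the negative samples. Its signals were 643 and 1002 on the positive arrays and 595 and 1478 on the negative arrays. Negative replicate 1 was the lowest and negative replicate 2 the highest of the 4, a gap of 1.29 on the log2 scale that enclosed both positive arrays. The log2 fold change was -0.22 ± 0.35 (SE; 95% interval -0.98 to 0.54; limma adjusted p 0.985). It was -0.86 without negative replicate 1 and 0.43 without negative replicate 2, so that these data give it no direction.

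Atf3, a stress-induced factor of the ATF family that can pair with Jun proteins, had 587 and 604 on the positive and 436 and 489 on the negative arrays. The arrays of each group were close, and the positive ones were higher than both negative ones. The means were 595 ± 11.7 and 463 ± 37.5 (SD, n = 2 each). The log2 fold change was 0.36 ± 0.21 (SE), with a 95% interval of -0.10 to 0.81 and an adjusted p of 0.985 by limma. Its groups overlapped under median centring of the arrays (0.24) and with no scaling (0.15).

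Myc, which encodes the growth regulator c-Myc, differed least of the 10 genes. Its signals were 1992 and 2269 on the positive and 1828 and 2428 on the negative arrays. The positive values lay between the negative ones, and the means were 2130.4 ± 196 and 2128 ± 425 (SD, n = 2 each). The log2 fold change was 0.01 ± 0.19 (SE; 95% interval -0.40 to 0.43), with a limma adjusted p of 0.996, and -0.08 was found where arrays were centred on their medians.

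After quantile normalization, the arrays numbered 2 were the higher of their group for most of these genes. In 7 of the 10 (Fosl2, Jun, Junb, Jund, Egr1, Atf3 and Myc) both the positive and the negative array labelled replicate 2 had the higher signal of its group, against 27.3% of all genes tested, and in 1, Fosl1, both had the lower, against 27.9%. For Jun the gap was 0.54 within the positive and 0.55 within the negative group on the log2 scale, and for Junb 0.53 and 0.48. Over the 10 genes the median gap between the 2 arrays of a group was 0.38 in positive and 0.44 in negative cells, against 0.26 and 0.24 over all genes. Fos and Fosb were outside this pattern: Fos had a gap of 0.10 in the positive group and -0.83 in the negative, replicate 2 minus replicate 1, and Fosb 1.20 and -0.05. The labels name no shared day, culture or batch for samples of the same number. The pattern was counted on the quantile normalized signals only, and not under the other scalings. As deposited, Atf3 had 551.8 on positive replicate 1 and 530.8 on positive replicate 2, the other order. This pattern was noticed after the values were seen, and the part of handling in it was not tested.

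**Figure D3:**
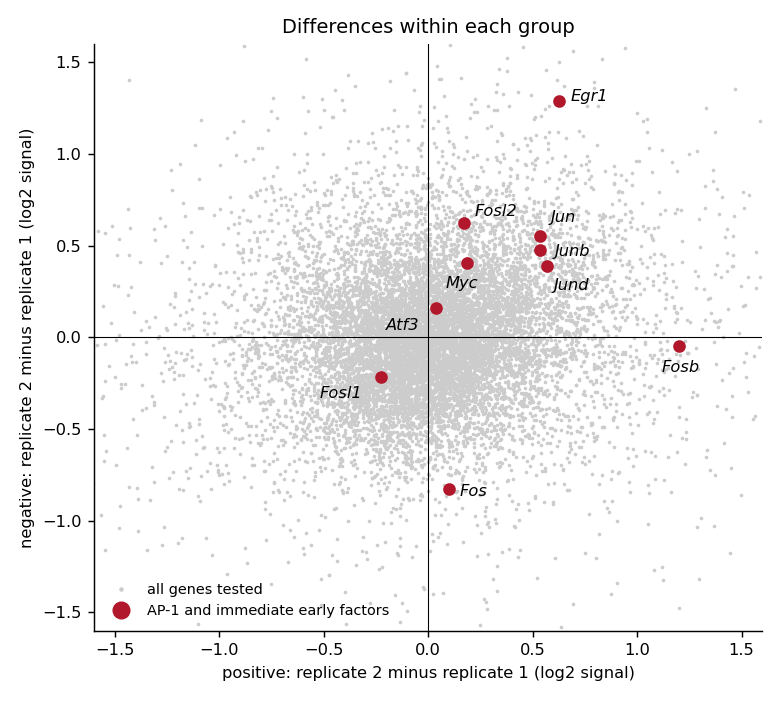
Difference between replicate 2 and replicate 1 in log2 normalized signal, within the positive group (horizontal axis) and within the negative group (vertical axis), for the 10 genes (red) and all genes tested (grey; 104 genes lie outside the axes, which end at 1.6). Of the 10 genes 7 lie in the upper right quadrant, where both replicate 2 arrays were higher, with Fos and Fosb outside it and Fosl1 in the lower left quadrant.

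Other immediate early genes were looked at next, from a list of 30, of which 29 were tested. Among them, 19 lay above 0, against 54.3% of all genes, and 10 below, with a median log2 fold change of 0.20 where that of all genes was 0.03. None passed limma over all genes. At an unadjusted p under 0.05, 2 were higher (Ccn2 and Gadd45b), against 2.68% of all genes, and 1 was lower (Dusp5), against 1.76%. In 15 of the 29 the groups did not overlap, 10 higher and 5 lower, against 32.3% of all genes. The 4 brightest were Ccn2, a matricellular protein induced by serum and YAP, at 0.42, the prostaglandin synthase Ptgs2, at -0.03, the survival factor Ier3, at 0.08, and Ccn1, a relative of Ccn2, at 0.20. Ccn2 had signals of 5881 and 5583 on the positive and 4376 and 4199.7 on the negative arrays (unadjusted p 0.0120, limma adjusted p 0.980). Gadd45b, a stress-response gene, had 1045 and 1824 against 886 and 784 and a log2 fold change of 0.72. Dusp5, a phosphatase that switches off ERK in the nucleus, had 318 and 349 against 516 and 454 and a log2 fold change of -0.52. Gadd45b and Dusp5 are named because of their values. The list's median was 0.06 with arrays centred on their medians, where that of all genes was -0.07, and -0.02 with no scaling, where that of all genes was -0.15. With 1 array left out it was 0.05 without positive replicate 2, 0.08 without negative replicate 1, 0.11 without negative replicate 2 and 0.17 without positive replicate 1, where that of all genes was 0.02, 0.03, 0.01 and 0.05.

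Of 19 genes listed for bZIP proteins that pair with Fos and Jun proteins or share their sites, 14 were tested, 7 above 0 and 7 below, with a median of -0.06. Without positive replicate 2, and likewise without negative replicate 1, 3 of the 14 lay above 0 with a median of -0.16, and without positive replicate 1 the median was 0.01. None passed limma over all genes, and 2 were lower at an unadjusted p under 0.05, against 1.76% of all genes. These were Creb1, the factor that binds the cAMP response element, at -0.46 (1117 and 964 on the positive, 1452 and 1424 on the negative arrays), and Cebpb, a bZIP factor of inflammation and mammary development, at -0.53 (1419 and 1435 against 1560.2 and 2720; limma adjusted p 0.985 for both). The other 2 of the 4 brightest were the stress factor Atf4, at 0.03, and Atf2, a partner of c-Jun, at -0.27.

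Upstream of these genes, 15 of 22 kinases and serum response factor partners were tested, with 8 above 0 and 7 below and a median of 0.06. Under median centring of the arrays it was -0.08, where that of all genes was -0.07, and without positive replicate 2 it was -0.14, where that of all genes was 0.02. None passed limma over all genes, and 1, Mapk8, which encodes the Jun kinase JNK1, was lower at an unadjusted p under 0.05 (against 1.76% of all genes), with 503 and 331 against 564 and 625 and a log2 fold change of -0.52 (unadjusted p 0.0495). The 4 brightest were Elk3 and Elk4, partners of serum response factor, at 0.08 and -0.26, and the ERK kinases Map2k1 and Map2k2, at -0.04 and 0.06.

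Among 17 genes known as AP-1 targets, 12 were tested, with 10 above 0, 2 below and a median of 0.13. Of all genes 54.3% lay above 0. With no scaling 5 of 12 lay above 0, against 3371 of 11955 genes, and the median was -0.05, where that of all genes was -0.15. Without negative replicate 2, 8 of 13 lay above 0, against 6216 of 12021 genes. The median was then 0.05, where that of all genes was 0.01. None passed limma over all genes, and 2 had an unadjusted p under 0.05, in opposite directions, against 4.45% of all genes. Mmp10, the matrix protease stromelysin-2, had 180.5 and 141 on the positive and 70.8 and 76.1 on the negative arrays, a log2 fold change of 0.97 ± 0.26 (SE; unadjusted p 0.00264, limma adjusted p 0.608). Mmp3, stromelysin-1, had 193 and 172 against 355 and 219.8, a log2 fold change of -0.58. The 4 brightest were the cyclin Ccnd1, at 0.02, Cd44 itself, at 0.11, the protease inhibitor Timp1, at 0.13, and the growth factor Hbegf, at 0.12.

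**Figure D4:**
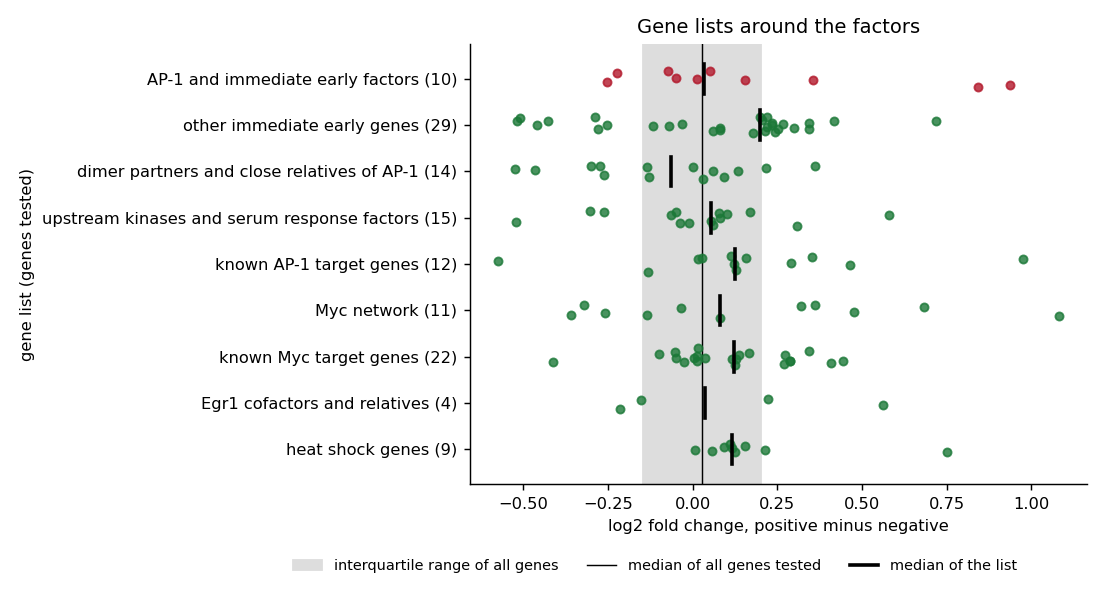
Log2 fold change (positive minus negative) of each tested gene in the 10-gene set (red) and in the lists around it (green), with the number tested in brackets, a thick bar at each list's median, a thin line at the median of all genes and a grey band over the interquartile range of all genes. Fos and Fosb are the red points farthest to the right, at 0.94 and 0.84, and the other immediate early genes have a median of 0.20.

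Around Myc, 11 genes of its network of partners, antagonists and paralogs were tested, with 6 above 0 and 5 below and a median of 0.08. Under median centring of the arrays the median was -0.07, as was that of all genes, and without positive replicate 2 it was -0.00053, where that of all genes was 0.02. None passed limma over all genes, and 1, the paralog Mycn, was higher at an unadjusted p under 0.05 (0.0382, against 2.68% of all genes), with overlapping groups: 46.5 and 119.8 on the positive and 51.1 and 12.2 on the negative arrays. Negative replicate 2 lay below the filter level of 19.4, so the log2 fold change of Mycn, 1.08, is no exact size. The 4 brightest were the Myc antagonists Mxi1, at -0.04, and Mnt, at -0.14, the Max partner Mga, at -0.36, and Mlx, which pairs with the Mondo proteins, at 0.32. Of 22 known Myc targets, 17 lay above 0, against 54.3% of all genes, with a median of 0.12. Without negative replicate 2 it was 11 of 22 with a median of 0.01, as for all genes. Of these targets 0 passed limma over all genes or had an unadjusted p under 0.05. The brightest were the nucleolar proteins Npm1, at -0.02, and Ncl, at 0.0046, the lactate dehydrogenase subunit Ldha, at 0.13, and Odc1, the first enzyme of polyamine synthesis, at 0.01.

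Markers of other cells were set beside the Fos difference. The summed signal of 8 macrophage markers was 499 and 677 on the positive arrays and 455 and 409 on the negative arrays, so it was higher in the positive group too, with 5 of the 8 above the filter. Of these 5, Cd14, Csf1r, Cd68 and Adgre1 had log2 fold changes of 0.37, 0.51, 0.34 and 0.51 with both positive arrays higher, none past limma over all genes or at an unadjusted p under 0.05, and Laptm5 had -0.0057. The general leukocyte marker Ptprc was at 0.825 to 12.7 on the 4 arrays, and Lyz2 and Tyrobp were also below the filter on average. The 8 fibroblast markers summed to 151 and 130 against 199 and 175, with 2 above the filter. Of these 2, Pdgfra had a log2 fold change of -0.94 and Col1a2 one of 0.04. Pdgfra had 47.0 and 33.55 on the positive and 107.9 and 76.6 on the negative arrays (unadjusted p 0.0111, limma adjusted p 0.980). The 5 endothelial markers summed to 499.7 and 449 against 403 and 383, most of it from Eng, the 1 of them above the filter. The 4 lymphocyte markers summed to 22.6 to 41.2 and the 2 erythroid markers to 4.53 to 20.6 over the 4 arrays. All 7 epithelial markers lay above 0, and 2 of them passed limma over all genes, Epcam (log2 fold change 1.34, adjusted p 0.0118) and Krt14 (1.97, adjusted p 0.00547). The part of any of these cell types in the Fos difference was not tested.

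The size and sign of the fold changes were followed through 15 other settings. For a gene with 1 probe set, the filter settings, probe set averaging and exclusion of less specific probe sets could not change them. Leaving out the intensity trend or adding the replicate block changes no fold change either. With 1 array left out, groups that lay apart can overlap only through the new normalization. The 15 settings are therefore not 15 separate checks. Fos, Fosb and Atf3 stayed above 0 and Fosl1 below 0 in all 15, with ranges of 0.54 to 1.34, 0.24 to 1.43, 0.15 to 0.44 and -0.45 to -0.14. The groups of Fos did not overlap in any of the 15, and its unadjusted p was under 0.05 in 14, the exception being no scaling between arrays (0.130). The signs of Fosl2, Jun, Junb, Jund, Egr1 and Myc each turned in 2 to 4 of the 15.

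**Figure D5:**
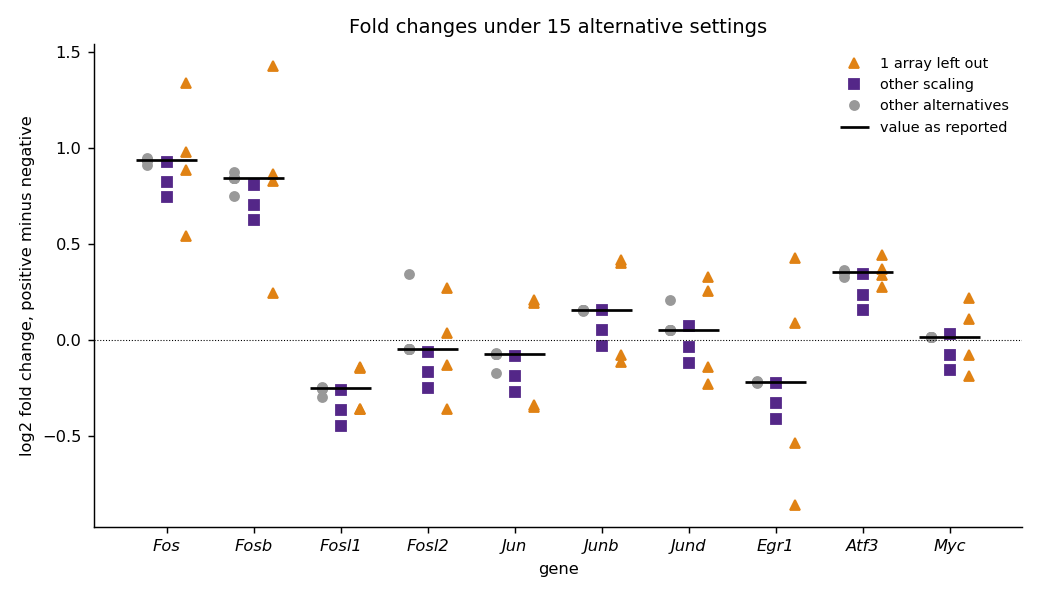
Log2 fold change (positive minus negative) of each of the 10 genes as reported (black line) and under 15 alternatives: 1 array left out (orange triangles), another scaling (purple squares) and the remaining alternatives (grey circles). All points of Fos, Fosb and Atf3 lie above 0 and all points of Fosl1 below, and those of the other 6 genes lie on both sides.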

How the data were processed

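Total RNA of 4 samples of 4T1 cells was hybridised to Affymetrix one-colour arrays, and groups were taken from the sample titles. The deposited values were linear intensities, 1 per probe set and array, from 0.1 to 22695.6. The submitters' processing notes name GCOS, while the sources used here do not give the summary method, background correction or scaling. Gene names come from the 2016 annotation of the platform, and the symbols were checked against RefSeq.

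Intensities were quantile normalized and transformed as log2(value + 16). The 64 control probe sets and probe sets with a mean below the 40th percentile were left out. Each gene was represented by its brightest probe set, and each probe set was also tested on its own. Groups were compared with limma 3.58.1 in R 4.3.3 (intensity trend, two-sided, Benjamini-Hochberg, threshold 0.05), with a median SE of 0.24. The procedure was run on simulated data with known changes and independent noise drawn from the fitted spreads. How often it finds changes of the size seen in Fos is not reported here.

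The members and gene lists were chosen with earlier results of these data known. All members were named whatever their values; from each other list the genes past the threshold and the 4 brightest were named, and genes named for an unadjusted p under 0.05 were chosen after their values were seen. The number of arrays limits the precision. Alternatives were 3 other scalings, a pseudocount of 1 or 64, the filter dropped or raised to the 60th percentile, averaging of all probe sets per gene, exclusion of less specific probe sets (identifiers with _x_at or _s_at), no intensity trend, a block for the replicate number, and 1 array left out at a time.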

Additional observations from a re-analysis of the deposited data

How the results depend on the processing

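The number of genes called was 9, all higher. It was 25 with arrays centred on their medians (20 higher and 5 lower), 3 with no scaling, 3 with no filter, 2 without the intensity trend, and 6 to 16 with 1 array left out, the most without positive replicate 1. Probe sets called on their own numbered 9, which became 17 under median centring and 4 with no scaling. Called members were 0 in each setting that kept all 4 arrays. Without negative replicate 1 the log2 fold change of Fos was 1.34, in a fit that holds no spread between negative samples. The median of the 10 genes, 0.03, ran from -0.14 to 0.33 with 1 array left out, the highest without negative replicate 2. No scaling moved the median of all genes from 0.03 to -0.15. With the replicate number as a block 18 genes were called and 0 members (limma adjusted p of Fos 0.106). With 2 pairs and no shared day or culture in the labels, the numbers are not known to pair the samples, and the deviations of same-numbered arrays correlated at 0.12 across genes. Of 150 gene and setting pairs of the 10 genes, 18 turned sign. Many of the pairs could not turn, since the filter, trend and block settings leave a fold change unchanged. With all 4 arrays, those that turned were Jund (-0.038) and Myc (-0.078) under median centring, Junb (-0.031), Jund (-0.12) and Myc (-0.16) with no scaling, and Fosl2 (0.35) with the mean of its probe sets. With 1 array left out, values ran from -0.86 to 0.43 for Egr1, -0.36 to 0.27 for Fosl2, -0.35 to 0.21 for Jun, -0.11 to 0.42 for Junb, -0.23 to 0.33 for Jund and -0.19 to 0.22 for Myc. The cause was not tested.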

Other observations

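Of 5 cofactors and relatives of Egr1, 4 were tested, and 0 passed limma over all genes or had an unadjusted p under 0.05. The corepressors of Egr1, Nab1 and Nab2, had log2 fold changes of -0.15 and -0.22, with both positive arrays below both negative arrays. Sp1, which binds similar sites, had 0.22, and Egr4 had 0.56 with overlapping groups. For Egr4, positive replicate 2, at 16.6, and negative replicate 2, at 3.5, were below the filter level.

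Heat shock genes, which respond to stress and handling, lay above 0 in 9 of 9 tested, against 54.3% of all genes, and their median log2 fold change was 0.12 where that of all genes was 0.03. With no scaling 6 of 9 lay above 0 with a median of 0.03, where that of all genes was -0.15. Without negative replicate 2, 5 of 9 lay above 0 with a median of 0.05, where that of all genes was 0.01. None passed limma over all genes, and 1, the small heat shock protein Hspb1, was higher at an unadjusted p under 0.05 (against 2.68% of all genes), with 63.0 and 58.2 on the positive and 27.4 and 31.8 on the negative arrays. The 4 brightest, Hspa8, Hsp90aa1, Hspa5 and Hspd1, had 0.06, 0.09, 0.0067 and 0.12.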
